A study of Mus musculus with 14 samples.

Results

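Perforin, 4 granzymes and 5 further genes of cytotoxic cells were followed in mouse CD4+ T cells by RNA sequencing. The members are Prf1, Gzma, Gzmb, Gzmc, Gzmk, Srgn, Cst7, Ctsw, Nkg7 and Fgl2. They were chosen by gene name in a table of protein-coding genes, with earlier results of these data known. The set is 10 of 22048 genes, and all 10 passed the filter on low counts that left 12343 genes for testing. The source was spleen and peripheral lymph nodes from C57BL/6 mice that carry an IFN-g-YFP reporter, in which interferon-gamma expression is read as yellow fluorescence. Naive cells (n = 3) were sorted as CD4+ CD44- CD62L+ and were not cultured. The other libraries came from enriched CD4+ T cells, not from sorted naive cells, that spent 4 days in Th1 conditions. Anti-CD3 and anti-CD28 were bound to the plate at 1 µg/ml each, IL-2 as well as IL-12 was added at 10 ng/ml, and anti-IL4 was present at 10 µg/ml. One compound was present at 1 µM in each culture. SGC0946 inhibits DOT1L, a histone methyltransferase, and SGC0649 is its inactive control compound. The cultured cells were then sorted into YFPpos and YFPneg fractions, which gave YFPneg SGC0649 (n = 2), YFPneg SGC0946 (n = 3), YFPpos SGC0649 (n = 3) and YFPpos SGC0946 (n = 3). Th1 cultures without compound or with solvent alone, and a further YFPneg SGC0649 sample, were not analysed here.

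Cytotoxic lymphocytes kill by releasing lysosome-related granules towards a target cell. Perforin opens the target membrane and the granzymes, a family of serine proteases, enter and cut proteins inside. Serglycin is the proteoglycan on which granzymes and perforin are packed, and cathepsins and cystatins act on proteases within the granule. The machinery is best known from CD8 T cells and natural killer cells, and CD4 T cells can also acquire it. Fgl2 is grouped with these genes here although it encodes a secreted fibrinogen-like protein, not a granule protein.

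Of the 10 granzyme genes of the mouse examined, 7 lie in 1 cluster of 144.6 kb on chromosome 14 (GRCm38, GENCODE M21), in the order Gzme, Gzmd, Gzmg, Gzmn, Gzmf, Gzmc and Gzmb. Gzma and Gzmk lie together on chromosome 13 within 132.1 kb, and Gzmm lies on chromosome 10. Gzmb occupies chr14:56258838-56262260 on the minus strand and its neighbour Gzmc chr14:56231441-56234656 on the same strand, yet their levels differed widely in all cultured groups. Prf1 occupies chr10:61297833-61304680 on the plus strand. The promoters of these 3 genes are shown because Gzmb and Gzmc are cluster neighbours with unlike levels and because Prf1 had one of the largest differences between compounds among the members. Each is the 250 bases before the RefSeq start (GRCm38.p6), read 5′ to 3′ on the gene's strand. Capitals mark matches, on either strand, to the RUNX core TGTGGT, the T-box core GTGTGA and the AP-1 motif TGANTCA, and the STAT motif TTCNNNGAA was also searched.
Gzmb, chr14:56262335-56262584, minus strand: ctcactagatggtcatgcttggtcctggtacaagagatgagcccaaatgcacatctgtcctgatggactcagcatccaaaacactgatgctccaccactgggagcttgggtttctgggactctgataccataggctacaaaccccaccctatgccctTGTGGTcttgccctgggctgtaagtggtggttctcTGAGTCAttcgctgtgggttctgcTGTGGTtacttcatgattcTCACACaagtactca
Gzmc, chr14:56234658-56234907, minus strand: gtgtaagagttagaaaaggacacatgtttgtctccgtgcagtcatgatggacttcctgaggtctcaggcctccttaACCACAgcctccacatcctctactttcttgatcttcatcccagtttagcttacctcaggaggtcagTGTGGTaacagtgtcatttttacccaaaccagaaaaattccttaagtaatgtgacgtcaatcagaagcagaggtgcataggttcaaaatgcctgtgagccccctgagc
Prf1, chr10:61297586-61297835, plus strand: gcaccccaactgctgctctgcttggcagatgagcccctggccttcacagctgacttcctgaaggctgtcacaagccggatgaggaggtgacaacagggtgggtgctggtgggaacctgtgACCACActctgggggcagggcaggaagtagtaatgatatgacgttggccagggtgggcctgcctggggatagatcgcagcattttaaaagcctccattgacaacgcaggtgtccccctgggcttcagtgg
The Gzmb window held 2 RUNX cores, at -93 to -88 and -34 to -29 from the start, 1 AP-1 motif at -58 to -52 and 1 T-box core at -15 to -10. The Gzmc window held 2 RUNX cores, at -174 to -169 and -108 to -103, and the Prf1 window 1, at -130 to -125. Among 32851 RefSeq promoter windows of this length, 14% held the RUNX core, 12.3% the T-box core, 7.02% the STAT motif and 6.75% the AP-1 motif. A match is a run of letters and not a measured binding site. Of the 10 members 9 had a promoter entry. Ctsw had none.

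Total counts ran from 14486577 to 31614057 per library. The study design calls the replicates biological, and the sources used here do not say whether they came from separate animals, so p-values measure the spread between these samples, which may be technical. Levels are given as TMM-scaled counts per 1000000 reads in genes (CPM), in the order of replicates, and as CPM per kb of exon length where genes are compared with each other. Ifng ran from 532.5 CPM upward in YFPpos libraries, from 25.4 to 113.8 CPM in YFPneg libraries and from 0 to 0.187 CPM in naive libraries. The 6 CD4 T cell markers (Cd3d, Cd3e, Cd3g, Cd4, Cd28 and Cd5) were detected in all groups, at summed levels of 2224 to 3369 CPM. The 2 CD8 T cell markers Cd8a and Cd8b1 summed to 16.1 to 19.3 CPM in naive, 6.50 to 9.51 CPM in YFPneg SGC0649, 12.2 to 19.7 CPM in YFPneg SGC0946, 4.76 to 6.41 CPM in YFPpos SGC0649 and 5.82 to 6.63 CPM in YFPpos SGC0946 cells. The 6 NK cell markers summed to 4.20 CPM or less in every library. Of these, Klra4, Klra8, Klrb1c and Ncr1 had 0 counts in YFPneg SGC0649 cells (n = 2), and Klra8 and Ncr1 had 0 counts in YFPpos SGC0946 cells. In YFPneg SGC0946 cells Klra8 alone had 0 counts, and all 6 had counts in naive and in YFPpos SGC0649 cells. Of all reads, YFPpos SGC0946 replicate 2 had 3.61% unmapped, while the other YFPpos libraries had 6.44% to 8.35%, and YFPneg libraries had 3.14% to 4.62%.

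The 10 members together took 0.0224% to 0.0230% of counts in naive cells, 0.238% to 0.252% in YFPneg SGC0649, 0.322% to 0.359% in YFPneg SGC0946, 0.465% to 0.495% in YFPpos SGC0649 and 0.652% to 0.681% in YFPpos SGC0946 cells. The 5 groups did not overlap. Gzmb alone made up 67.5% to 77.3% of the members' summed CPM in cultured libraries and 0.24% to 1.19% in naive libraries, so the sum chiefly follows that gene. In bulk RNA, more cells that express a gene and more RNA per cell cannot be told apart, and this holds for every comparison below.

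Per kb of exons, the mean levels in YFPpos SGC0946 cells were ordered Gzmb, Nkg7, Srgn, Cst7, Ctsw, Prf1, Gzmc, Gzma, Fgl2 and Gzmk. Gzmb stood at 3427 ± 163 CPM per kb (SD, n = 3), Nkg7 at 589.1 ± 23.9, Srgn at 244.4 ± 22.8 and Cst7 at 124.8 ± 5.11 CPM per kb. Ctsw followed at 88.9 ± 2.96 CPM per kb and Prf1 at 55.7 ± 7.39 CPM per kb. Gzmc at 13.6 ± 2.76, Gzma at 11.5 ± 1.86 and Fgl2 at 10.03 ± 1.36 CPM per kb had overlapping ranges. Gzmc exceeded Gzma in each of these libraries. Gzmk was lowest, at 0.583 ± 0.153 CPM per kb. Naive cells had another order. Srgn led at 63.4 ± 1.41 CPM per kb (SD, n = 3). Ctsw at 20.3 ± 0.549 CPM per kb stood slightly above Prf1 at 19.3 ± 0.858 CPM per kb, and did so in each naive library. Gzmb was at 1.12 ± 0.785 CPM per kb.

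**Figure D1:**
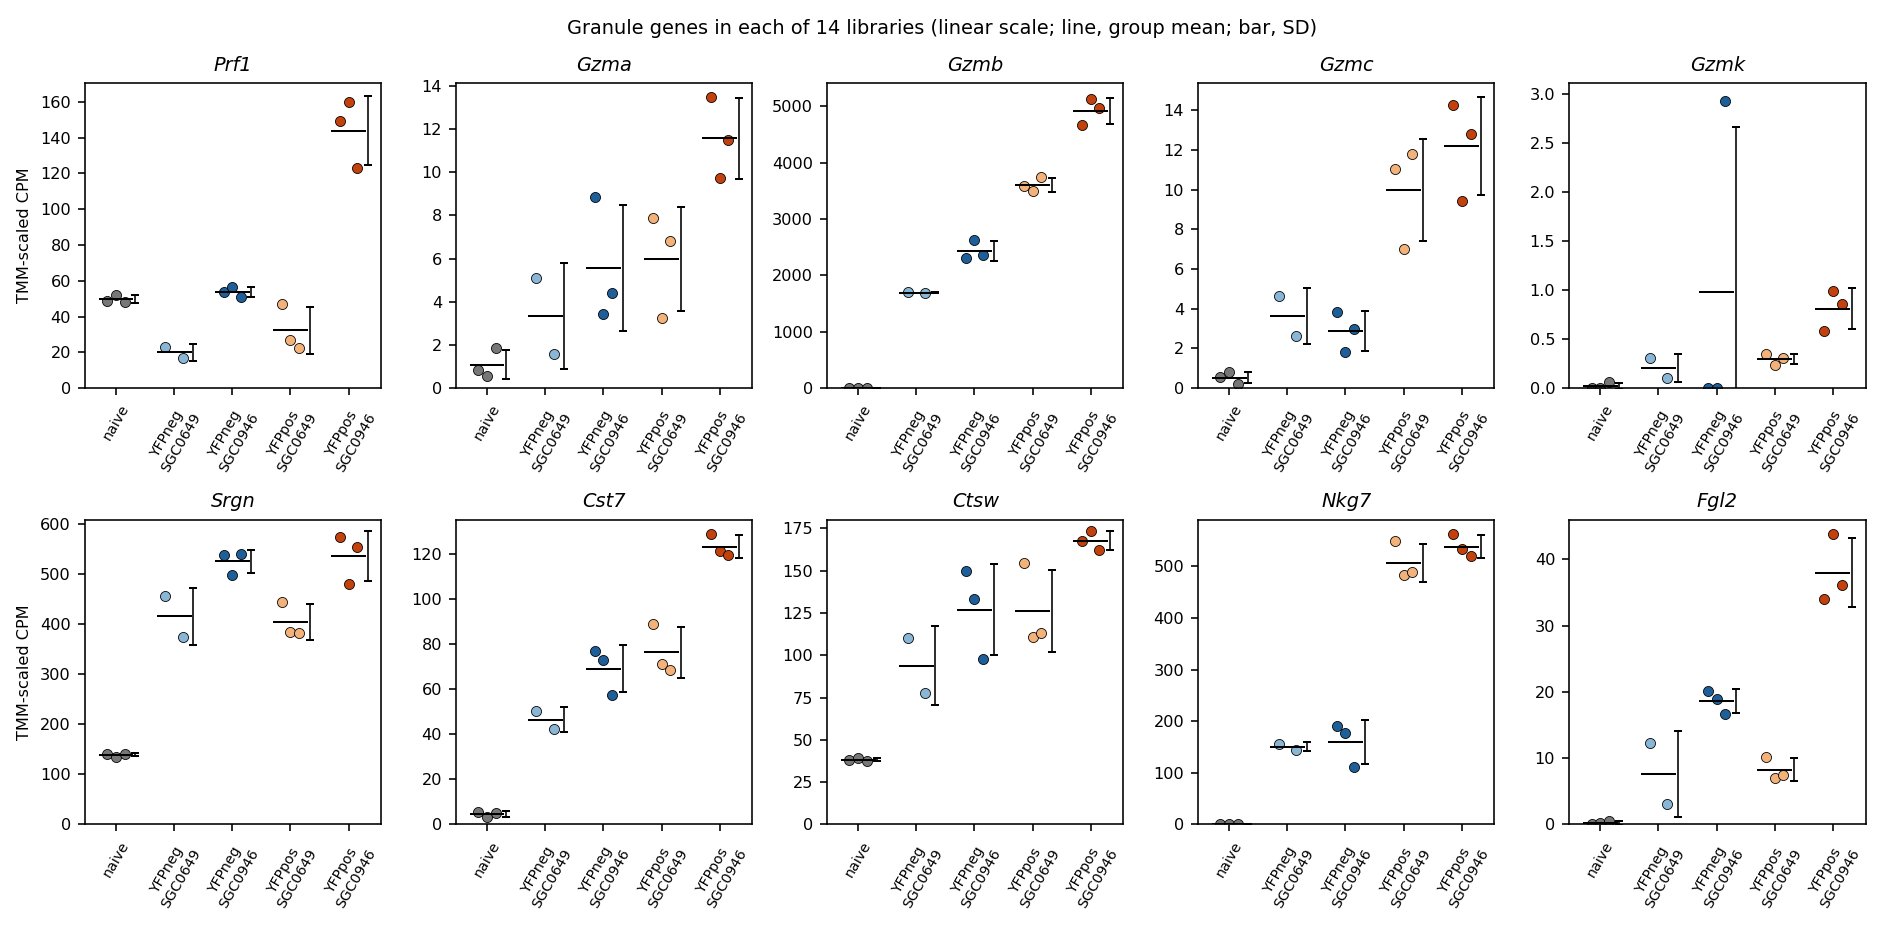
TMM-scaled CPM (linear axes, 1 panel per gene) of the 10 members in 14 libraries of 5 groups, with the group mean as a line and the SD as a bar. Gzmb separates all 5 groups, from 1.60 CPM on average in naive to 4921 CPM in YFPpos SGC0946 cells. Every member but Gzmk has its highest mean in YFPpos SGC0946 cells. Nkg7 and Gzmc separate the sorts but not the compounds.

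Prf1, which encodes perforin, was held by naive cells at a level between those of the cultured groups. The naive libraries had 48.9, 52.3 and 48.1 CPM. YFPneg SGC0649 libraries had 23.2 and 16.6 CPM and YFPpos SGC0649 libraries 47.0, 27.1 and 22.6 CPM. All 5 control-compound libraries thus lay below all 3 naive libraries, with YFPpos replicate 1 just under them. With the inhibitor, YFPneg libraries had 53.6, 56.3 and 50.6 CPM, overlapping naive cells, and YFPpos libraries had 149.1, 160.0 and 122.8 CPM, above every other library. Prf1 was lower than in naive cells in YFPpos SGC0649 (log2 fold change -0.62, SE 0.19, adjusted p 0.00674) and in YFPneg SGC0649 cells (-1.32, SE 0.23, adjusted p 6.82e-05). It was higher than in naive cells in YFPpos SGC0946 cells (1.53, SE 0.19, adjusted p 7.63e-07), and YFPneg SGC0946 cells had a log2 fold change of 0.11 (95% interval -0.30 to 0.51, adjusted p 0.628). Between the compounds, Prf1 was 4.46-fold higher with SGC0946 in YFPpos cells (95% interval 3.37 to 5.90, adjusted p 1.21e-06) and 2.69-fold higher in YFPneg cells (1.92 to 3.77, adjusted p 0.00195). Between the sorts, it was 2.69-fold higher in YFPpos than in YFPneg cells with SGC0946 (2.05 to 3.53, adjusted p 6.4e-06) and 1.62-fold higher with SGC0649 (1.16 to 2.26, adjusted p 0.0193). The last of these calls was lost without YFPpos SGC0649 replicate 1 (log2 fold change 0.32, adjusted p 0.103) and without YFPneg SGC0649 replicate 2 (0.48, adjusted p 0.207).

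Gzmb, the aspartate-cutting granzyme B that activates caspases in target cells, had the highest level of the members per kb in every cultured group. The naive libraries had 1.44, 2.80 and 0.567 CPM. YFPneg libraries had 1702 and 1686 CPM with SGC0649 and 2305, 2632 and 2365 CPM with SGC0946. YFPpos libraries had 3584, 3502 and 3745 CPM with SGC0649 and 4666, 5124 and 4972 CPM with SGC0946. No 2 groups overlapped. Against naive cells Gzmb was 1074-fold higher in YFPneg SGC0649 (95% interval 812 to 1420) and 3119-fold higher in YFPpos SGC0946 cells (2353 to 4133), with YFPneg SGC0946 at 1543-fold and YFPpos SGC0649 at 2288-fold. These folds rest on few naive counts. Gzmb was 2.13-fold higher in YFPpos than in YFPneg cells with SGC0649 (1.77 to 2.56, adjusted p 2.68e-06) and 2.02-fold higher with SGC0946 (1.72 to 2.37, adjusted p 6.86e-07). SGC0946 cells exceeded SGC0649 cells by 1.36-fold in YFPpos (1.16 to 1.60, adjusted p 0.00592) and by 1.44-fold in YFPneg cells (1.20 to 1.72, adjusted p 0.0165). The YFPneg call was lost without either YFPneg SGC0649 replicate (adjusted p 0.0654 and 0.0961), at log2 fold changes of 0.53 and 0.52.

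Gzma encodes granzyme A, a tryptase-like protease, and stood far below Gzmb. Naive libraries had 0.839, 0.561 and 1.87 CPM, YFPneg SGC0649 libraries 5.08 and 1.59 CPM, and YFPneg SGC0946 libraries 8.87, 3.43 and 4.39 CPM. YFPpos libraries had 7.90, 3.25 and 6.79 CPM with SGC0649 and 13.5, 9.73 and 11.5 CPM with SGC0946. The YFPpos SGC0946 libraries lay above all others, and the rest overlapped their neighbours. Against naive cells Gzma was higher in all 4 cultured groups, at log2 fold changes of 2.44 (adjusted p 0.000279) in YFPpos SGC0649, 1.59 (adjusted p 0.0199) in YFPneg SGC0649, 3.38 (adjusted p 6.74e-06) in YFPpos SGC0946 and 2.34 (adjusted p 0.000571) in YFPneg SGC0946 cells. The YFPneg SGC0649 call was lost without YFPneg SGC0649 replicate 1 (0.53, adjusted p 0.543). It was also lost without naive replicate 1 (adjusted p 0.0638) or 2 (adjusted p 0.0774). Between sorts Gzma passed with SGC0946 (1.04, SE 0.41, adjusted p 0.0405) and had 0.84 (SE 0.49, adjusted p 0.174) with SGC0649. The first of these was lost in 4 of 6 fits that left out 1 of the libraries compared. The second passed without YFPneg SGC0649 replicate 1 (1.91, adjusted p 0.0323) and was as low as 0.24 with another library left out. The compounds gave 0.95 (95% interval 0.10 to 1.79, adjusted p 0.0895) in YFPpos and 0.75 (-0.30 to 1.80, adjusted p 0.353) in YFPneg cells, neither past the threshold. The YFPpos value passed with the replicate block (1.04, adjusted p 0.00997), with only the libraries compared (0.98, adjusted p 0.0191) and with no filter on low counts (0.97, adjusted p 0.0489).

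Gzmc encodes granzyme C, a granzyme of the chromosome 14 cluster found in rodents. Naive libraries had 0.539, 0.810 and 0.227 CPM, and YFPneg libraries had 4.62 and 2.62 CPM with SGC0649 and 3.85, 1.81 and 3.00 CPM with SGC0946. YFPpos libraries had 11.1, 7.03 and 11.8 CPM with SGC0649 and 14.3, 9.46 and 12.8 CPM with SGC0946. Every YFPpos library lay above every YFPneg library, and within a sort the compounds overlapped. Gzmc was 2.75-fold higher in YFPpos than in YFPneg cells with SGC0649 (95% interval 1.66 to 4.56, adjusted p 0.00241) and 4.19-fold higher with SGC0946 (2.66 to 6.59, adjusted p 2.82e-05). The compounds gave log2 fold changes of 0.29 (-0.30 to 0.87, adjusted p 0.471) in YFPpos and -0.32 (-1.09 to 0.45, adjusted p 0.613) in YFPneg cells. Of the 50-base stretches in Gzmc exons, 4.14% also occur in Gzmd, Gzme or Gzmg. Reads that map to several places were left unassigned, so a small part of its reads could be missing from its counts.

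Gzmk encodes granzyme K, and its counts were few. Naive libraries held 1 count in all, at 0, 0 and 0.0567 CPM. YFPneg SGC0649 libraries had 0.305 and 0.103 CPM and YFPneg SGC0946 libraries 0, 0 and 2.93 CPM, so replicate 3 held all 42 counts of its group. YFPpos libraries had 0.347, 0.239 and 0.303 CPM with SGC0649 and 0.578, 0.993 and 0.859 CPM with SGC0946. The ratio to naive cells was 15.02 (95% counting interval 2.40 to 622.5) in YFPpos SGC0649, 10.3 (1.38 to 456.8) in YFPneg SGC0649, 41.4 (7.18 to 1661) in YFPpos SGC0946 and 43.1 (7.32 to 1742) in YFPneg SGC0946 cells. These intervals cover counting error only. Gzmk passed the test against naive cells in YFPpos SGC0946 (adjusted p 0.0132) and YFPneg SGC0946 cells (adjusted p 0.0128), and without YFPneg SGC0946 replicate 3 the second had a log2 fold change of -2.11 (adjusted p 0.395). No naive or SGC0649 library held more than 8 counts of Gzmk, below the filter's minimum count of 10. The gene was thus tested only because of SGC0946 libraries, and no conclusion is drawn from its calls in those groups. Between sorts and between compounds Gzmk was not called. In YFPpos cells all SGC0946 libraries lay above all SGC0649 libraries, with 66 counts against 20 (log2 fold change 1.43, SE 1.06, adjusted p 0.337), and the difference passed with only the libraries compared (1.49, adjusted p 0.0094). Without YFPneg SGC0946 replicate 3 the sorts with SGC0946 differed by 7.10 on the log2 scale (adjusted p 0.000317), against a YFPneg group with 0 counts. In both of these fits Gzmk passed the filter only through YFPpos SGC0946 libraries, and no conclusion is drawn from either difference.

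**Figure D2:**
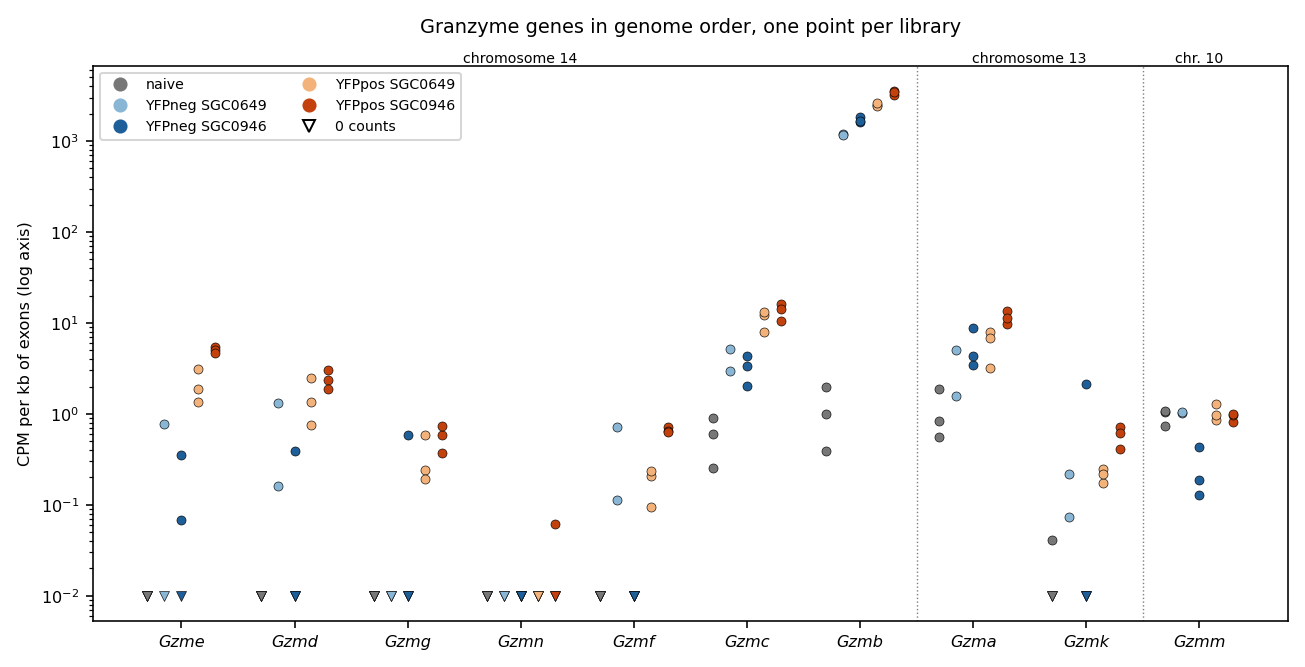
CPM per kb of exons (log axis) of the 10 granzyme genes in genome order, with 1 point per library, coloured by group, and triangles for libraries with 0 counts. Gzmb is far above its neighbour Gzmc, at 1180 against 4.05 CPM per kb in YFPneg SGC0649 and 3427 against 13.6 CPM per kb in YFPpos SGC0946 cells, Gzmd, Gzme, Gzmf, Gzmg and Gzmn had no naive counts, and Gzmm shows its lowest points in YFPneg SGC0946 cells.

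The other granzyme genes were near the limit of counting. Gzmd, Gzme, Gzmf, Gzmg and Gzmn had 0 counts in naive cells, and Gzmn had 2 counts in all, in 1 YFPpos SGC0946 library. Against a floor of 3 counts over the naive group, Gzme was at least 33.04-fold higher in YFPpos SGC0649 and at least 76.4-fold higher in YFPpos SGC0946 cells, and Gzmd at least 24.8-fold and at least 38.3-fold higher. YFPpos SGC0946 libraries had 4.98, 4.57 and 4.24 CPM of Gzme, above the 2.86, 1.24 and 1.73 CPM of YFPpos SGC0649 libraries. The test between those groups did not pass (log2 fold change 1.23, SE 0.55, adjusted p 0.108). Of 5 tested genes of this list, 0 passed between compounds in YFPpos cells, beside 12.1% of all genes higher and 15.7% lower. In YFPneg cells 2 were lower with SGC0946 and 0 higher, beside 3.64% and 4.99% of all genes. The genes lower in YFPneg cells were Gzmf and Gzmm, which encodes granzyme M. Gzmf had 15 counts against 0, at 0.103 to 0.660 CPM in the YFPneg SGC0649 libraries. Gzmm had 1.52 and 1.54 CPM against 0.641, 0.187 and 0.279 CPM (-1.99, SE 0.49, adjusted p 0.0196). YFPpos against YFPneg, 1 of 5 was higher with SGC0649 (Gzme), beside 23.9% of all genes. With SGC0946 4 of 5 were higher (Gzme, Gzmd, Gzmf and Gzmm), beside 26.9%. Gzmd, Gzme and Gzmf passed the filter on low counts only with the help of YFPpos libraries. No conclusion is drawn from their calls between sorts. Between 19.8% and 21.9% of the 50-base stretches of Gzmd, Gzme and Gzmg occur in other genes. Reads that map to several places were left unassigned, so counts of these copies could be too low and their separate values are uncertain.

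Srgn encodes serglycin. Naive libraries had 141.6, 135.8 and 140.6 CPM, the highest naive level of the members per kb. With SGC0649, YFPneg libraries had 456.5 and 375.0 CPM and YFPpos libraries 445.1, 384.0 and 382.7 CPM. With SGC0946, YFPneg libraries had 538.0, 498.8 and 540.1 CPM and YFPpos libraries 574.6, 480.0 and 555.4 CPM. Both sorts overlapped within each compound, and all inhibitor libraries lay above all control-compound libraries. Srgn was 2.90-fold to 3.85-fold higher than naive in the 4 cultured groups. Between sorts the log2 fold change was -0.04 (95% interval -0.23 to 0.15, adjusted p 0.743) with SGC0649 and 0.03 (-0.14 to 0.20, adjusted p 0.777) with SGC0946. Between compounds Srgn was 1.33-fold higher with SGC0946 in YFPpos (1.18 to 1.50, adjusted p 0.00155) and 1.26-fold higher in YFPneg cells (1.11 to 1.45, adjusted p 0.0313). The YFPneg call was lost without YFPneg SGC0649 replicate 2 (log2 fold change 0.20, adjusted p 0.283) and without YFPneg SGC0946 replicate 1 (0.32, adjusted p 0.0583).

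Cst7 encodes cystatin F, an inhibitor of the cathepsins that process granzymes. Naive libraries had 5.63, 3.24 and 5.10 CPM. YFPneg libraries had 50.3 and 42.5 CPM with SGC0649 and 76.9, 72.7 and 57.3 CPM with SGC0946. YFPpos libraries had 89.0, 71.3 and 68.4 CPM with SGC0649 and 128.8, 121.2 and 119.3 CPM with SGC0946. The compounds did not overlap within a sort, nor the sorts within a compound. SGC0946 cells were 1.61-fold higher in YFPpos (95% interval 1.34 to 1.94, adjusted p 0.000812) and 1.49-fold higher in YFPneg (1.20 to 1.85, adjusted p 0.0243). The YFPneg call was lost without YFPneg SGC0649 replicate 2 (log2 fold change 0.46, adjusted p 0.183) and without YFPneg SGC0946 replicate 1 (0.49, adjusted p 0.0581). YFPpos cells were 1.64-fold higher than YFPneg cells with SGC0649 (adjusted p 0.000766) and 1.78-fold higher with SGC0946 (adjusted p 3.28e-05). Against naive cells the folds ran from 9.90 in YFPneg SGC0649 to 26.3 in YFPpos SGC0946 cells.

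Ctsw encodes cathepsin W, a cysteine protease found mainly in cytotoxic lymphocytes. Naive libraries had 37.9, 39.5 and 37.5 CPM, YFPneg SGC0649 libraries 110.4 and 77.4 CPM, and YFPneg SGC0946 libraries 150.0, 133.1 and 97.8 CPM. YFPpos libraries had 154.3, 110.9 and 113.2 CPM with SGC0649 and 167.7, 173.3 and 162.2 CPM with SGC0946. The YFPpos SGC0946 libraries were the highest, and the YFPneg groups overlapped. All 4 cultured groups were higher than naive, by 2.45-fold in YFPneg SGC0649 to 4.38-fold in YFPpos SGC0946 cells. Differences among cultured groups were small. The compound effect passed in YFPpos cells (log2 fold change 0.41, SE 0.14, adjusted p 0.0429) and had 0.44 (SE 0.17, adjusted p 0.105) in YFPneg cells. YFPpos exceeded YFPneg by 0.43 (SE 0.17, adjusted p 0.0451) with SGC0649 and by 0.40 (SE 0.14, adjusted p 0.0277) with SGC0946. The compound call in YFPpos cells was lost without any 1 of 5 of the 6 libraries compared, and each sort call without some libraries. The YFPneg value passed with the replicate block (0.51, adjusted p 0.0229), without YFPneg SGC0649 replicate 1 (0.72, adjusted p 0.0448) and without YFPneg SGC0946 replicate 3 (0.59, adjusted p 0.0188).

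Nkg7 encodes a membrane protein of cytotoxic granules that takes part in their release. Naive libraries had 0.599, 0.436 and 0.907 CPM. YFPneg libraries had 156.7 and 144.4 CPM with SGC0649 and 191.6, 178.0 and 111.1 CPM with SGC0946. YFPpos libraries had 549.3, 482.4 and 489.2 CPM with SGC0649 and 562.5, 533.0 and 519.8 CPM with SGC0946. The sorts were far apart and the compounds overlapped in both. Nkg7 was 3.37-fold higher in YFPpos than in YFPneg cells with SGC0649 (95% interval 2.68 to 4.23, adjusted p 1.64e-07) and 3.35-fold higher with SGC0946 (2.75 to 4.09, adjusted p 1.45e-08). The compounds gave log2 fold changes of 0.09 in YFPpos (-0.19 to 0.36, adjusted p 0.661) and 0.09 in YFPneg cells (-0.22 to 0.41, adjusted p 0.735). Without YFPneg SGC0946 replicate 3, the lowest of its group, the YFPneg value was 0.30 (adjusted p 0.0279). Against naive cells the folds ran from 227.8 in YFPneg SGC0649 to 814.6 in YFPpos SGC0946 cells.

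Fgl2 was nearly absent from naive libraries, at 0, 0.249 and 0.510 CPM. YFPneg SGC0649 libraries had 12.2 and 3.03 CPM and YFPneg SGC0946 libraries 20.2, 18.9 and 16.7 CPM. YFPpos libraries had 10.2, 7.03 and 7.53 CPM with SGC0649 and 34.0, 43.8 and 36.2 CPM with SGC0946. With SGC0649 both sorts overlapped, and in each sort all inhibitor libraries lay above all control-compound libraries. Fgl2 was 4.59-fold higher with SGC0946 in YFPpos cells (95% interval 2.89 to 7.29, adjusted p 0.000121) and 2.43-fold higher in YFPneg cells (1.41 to 4.20, adjusted p 0.042). The YFPneg call was lost without YFPneg SGC0649 replicate 2 (log2 fold change 0.60, adjusted p 0.252) or YFPneg SGC0946 replicate 1 (1.22, adjusted p 0.0684) or 2 (1.27, adjusted p 0.0627). YFPpos exceeded YFPneg cells 2.04-fold with SGC0946 (1.31 to 3.17, adjusted p 0.00832). With SGC0649 the log2 fold change was 0.11 (-0.68 to 0.90, adjusted p 0.832), and it was 1.45 (adjusted p 0.00537) without YFPneg SGC0649 replicate 1 and -0.56 without replicate 2. Of the gene's neighbours, Ccdc146 overlaps Fgl2 on the other strand, as Fibp does Ctsw and Esm1 does Gzmk, and the counts were made by strand, per the name of the deposited table.

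The question of the study's title was the effect of the compounds under Th1 conditions, and it was read for the members in each sort. In YFPpos cells 6 of 10 members were higher with SGC0946 (Prf1, Fgl2, Cst7, Srgn, Gzmb and Ctsw) and 0 were lower, beside 12.1% of all tested genes higher and 15.7% lower. In YFPneg cells 5 of 10 were higher (Prf1, Fgl2, Gzmb, Cst7 and Srgn) and 0 lower, beside 4.99% of all genes higher and 3.64% lower. The median log2 fold change of the members was 0.57 in YFPpos and 0.55 in YFPneg cells, while that of all tested genes was -0.04 and 0.01. The members were chosen with earlier results of these data known. Shares and medians here and below describe the set and do not test it. The YFPneg count fell to 1 without YFPneg SGC0649 replicate 2 and to 2 without YFPneg SGC0946 replicate 1. The effect in YFPpos minus that in YFPneg cells was tested as an interaction. Of the members 0 passed, beside 1.15% of all genes in either direction. By edgeR 1 member had an unadjusted p under 0.05, Prf1, at 0.73 on the log2 scale (SE 0.29, unadjusted p 0.0229, adjusted p 0.277), and DESeq2 also called 0 of the 10. Prf1 passed without YFPpos SGC0649 replicate 1 (1.11, adjusted p 0.00567), and Fgl2 without YFPneg SGC0649 replicate 2 (1.59, adjusted p 0.0483). Some markers of other cells also differed between the compounds. In YFPpos cells 1 of 5 myeloid and 1 of 3 plasma cell markers were higher with SGC0946, and 0 of the tested CD8, NK, B and mast cell or basophil markers passed. The 5 myeloid markers summed to 8.63 to 8.94 CPM in YFPpos SGC0946 and 4.78 to 5.64 CPM in YFPpos SGC0649 cells, of which Csf1r had 0 counts in the former. The 3 plasma cell markers summed to 9.76 to 11.3 CPM against 5.11 to 6.51 CPM. In YFPneg cells 1 of 2 CD8 T cell markers was higher with SGC0946, and they summed to 12.2 to 19.7 CPM with SGC0946 and 6.50 to 9.51 CPM with SGC0649. There 1 of 3 plasma cell markers was also higher, at sums of 4.74 to 6.84 CPM with SGC0946 against 2.36 to 3.35 CPM with SGC0649. Of the tested NK, B, myeloid and mast cell or basophil markers 0 passed in YFPneg cells. The part of these markers in the members' differences was not tested.

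**Figure D3:**
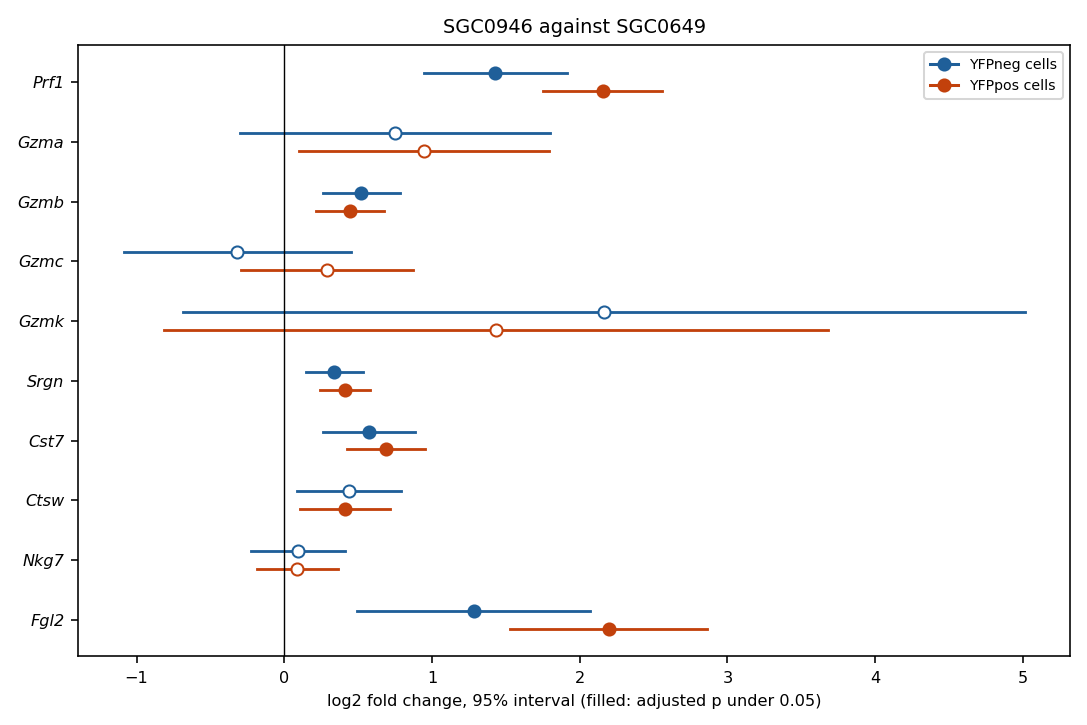
Log2 fold change of SGC0946 against SGC0649 for each member in YFPpos and YFPneg cells, with 95% intervals, where a filled circle marks an adjusted p under 0.05. Prf1 and Fgl2 lie farthest to the right in YFPpos cells, at 2.16 and 2.20, Nkg7 lies near 0 in both sorts, and the intervals of Gzmk are the widest.

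The second question was how reporter-positive cells differ from reporter-negative cells grown with the same compound. Whether the 2 sorts of a number shared a culture is not stated in the labels. With SGC0649, 6 of 10 members were higher in YFPpos cells (Nkg7, Gzmb, Gzmc, Cst7, Prf1 and Ctsw) and 0 lower, beside 23.9% of all genes higher and 21.3% lower. With SGC0946, 8 of 10 were higher, the same 6 with Fgl2 and Gzma, and 0 lower, beside 26.9% of all genes higher and 27.8% lower. The members' median log2 fold change was 0.71 with SGC0649 and 1.02 with SGC0946, and that of all genes 0.04 and 0.01. The summed levels of the CD8 markers, given above, were lower in YFPpos than in YFPneg cells with both compounds. Those of the 3 plasma cell markers were higher, at 5.11 to 6.51 against 2.36 to 3.35 CPM with SGC0649. With SGC0946 they were 9.76 to 11.3 against 4.74 to 6.84 CPM, and 1 of 3 passed with each compound. Of the tested NK, B, myeloid and mast cell or basophil markers 0 passed between sorts. The part of all these markers in the members' differences was not tested.

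**Figure D4:**
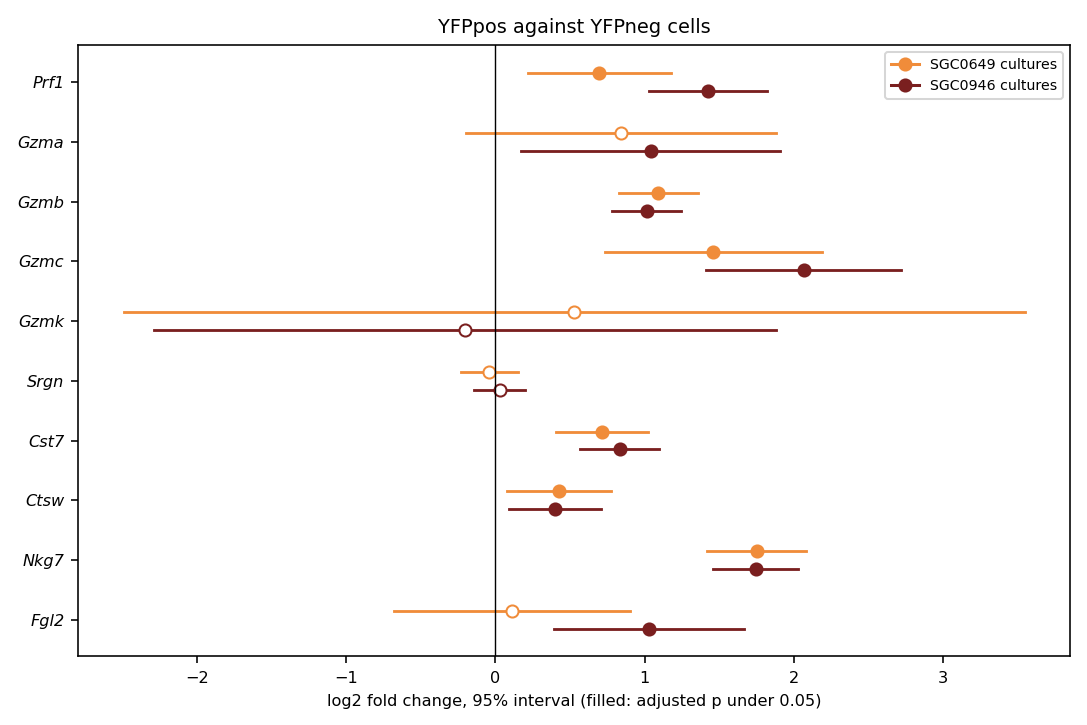
Log2 fold change of YFPpos against YFPneg cells for each member with SGC0649 and with SGC0946, with 95% intervals, where a filled circle marks an adjusted p under 0.05. Nkg7 is at 1.75 with both compounds, Gzmb is near 1, Gzmc at 1.46 and 2.07, and Srgn lies at 0.

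Against naive cells, which all 4 such comparisons share, 8 members were higher in YFPpos SGC0649 and 8 in YFPneg SGC0649 cells, with Prf1 lower and Gzmk not called in each. The shares of all genes higher were 42.6% and 36.4%, and the shares lower were 37.3% and 32.6%. In YFPpos SGC0946 cells 10 of 10 were higher and 0 lower, beside 42.2% and 38.5% of all genes. In YFPneg SGC0946 cells 9 were higher and 0 lower, beside 38.6% and 34.3%, and Prf1 was not called. Gzmk is counted as higher in both SGC0946 groups, and it passed the filter on low counts only through SGC0946 libraries. The members' medians were 3.79, 2.91, 4.63 and 3.18 on the log2 scale in the order YFPpos SGC0649, YFPneg SGC0649, YFPpos SGC0946 and YFPneg SGC0946, against 0.09, 0.03, 0.05 and 0.05 for all genes. Because the cultured cells came from enriched CD4+ T cells, these comparisons set culture, compound and starting population together.

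Genes that carry granules to the membrane were read as a list of 14, all tested. Between compounds in YFPpos cells 2 were higher and 1 lower with SGC0946, beside 12.1% and 15.7% of all genes. Sytl2, a Rab27 effector, had 25.7, 15.2 and 7.74 CPM with SGC0649 and 46.0, 50.6 and 40.5 CPM with SGC0946 (log2 fold change 1.50, SE 0.26, adjusted p 0.00051). Lyst, a regulator of lysosome size, had 0.25 (adjusted p 0.0415), and Ap3b1, an adaptor subunit of lysosome-related organelles, had -0.17 (adjusted p 0.0465). In YFPneg cells Sytl2 alone of the list passed (1.21, SE 0.32, adjusted p 0.0265). Between sorts 4 were higher and 1 lower with SGC0649, beside 23.9% and 21.3% of all genes. With SGC0946 6 were higher and 3 lower, beside 26.9% and 27.8%. Sytl3, another synaptotagmin-like Rab27 effector, led with 2.12 (SE 0.15, adjusted p 1.22e-08) and 2.02 (SE 0.13, adjusted p 1.5e-09), Rab27a, the GTPase that docks granules, had 0.40 (adjusted p 0.00816) and 0.60 (adjusted p 9.25e-05), and Lyst fell by 1.00 and 0.98. Against naive cells, 7 were higher and 5 lower in YFPpos SGC0649 cells, beside 42.6% and 37.3% of all genes. Stx11, a syntaxin of granule fusion, was at 5.03 and Sytl2 at -2.05. The list of granule enzymes, membrane proteins and sorting receptors had 11 of 12 genes tested. In YFPpos cells 4 were higher with SGC0946, led by the proteases Ctsd (1.01, SE 0.12, adjusted p 2.31e-05) and Ctsl (1.42, SE 0.26, adjusted p 0.000828), and 3 were lower, among them Igf2r, a receptor that sorts lysosomal enzymes (-0.60, SE 0.08, adjusted p 4.02e-05). The shares of all genes there were 12.1% higher and 15.7% lower. In YFPneg cells 2 were higher and 1 lower, beside 4.99% and 3.64%. Igf2r was also the 1 gene of this list past the interaction test (-0.59, adjusted p 0.0168).

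Intracellular serpins, of which some protect a cell from its own granzymes, were a list of 4 genes. All 4 were higher in YFPpos than in naive cells with either compound, beside 42.6% of all genes with SGC0649 and 42.2% with SGC0946. Between compounds in YFPpos cells they went both ways. Serpinb9, the murine inhibitor of granzyme B, had 158.5, 153.9 and 216.9 CPM with SGC0649 and 117.9, 85.8 and 118.9 CPM with SGC0946 and fell by 0.71 (SE 0.14, adjusted p 0.00109). The groups did not overlap. Serpinb6a, related to human SERPINB6, had 67.2, 51.6 and 40.7 CPM with SGC0649 and 97.4, 103.1 and 96.4 CPM with SGC0946 (0.90, SE 0.17, adjusted p 0.00139). Serpinb6b fell by 0.32 (adjusted p 0.0324), and Serpinb9b had 0.79 (adjusted p 0.353). In YFPneg cells Serpinb6a alone of the 4 passed (0.72, adjusted p 0.0402).

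Death ligands give a second route of killing that needs no granules. Of 4 tested, 0 were higher and 2 lower with SGC0946 in YFPpos cells, beside 12.1% and 15.7% of all genes. Fasl, which encodes Fas ligand, had 40.8, 39.1 and 44.6 CPM with SGC0649 and 28.6, 24.6 and 30.8 CPM with SGC0946 and fell by 0.57 (SE 0.15, adjusted p 0.0116), without overlap. Lta, encoding lymphotoxin alpha, fell by 0.92 (SE 0.22, adjusted p 0.00556) in YFPpos and by 1.19 (SE 0.26, adjusted p 0.0105) in YFPneg cells, where it alone of the 4 passed. Tnfsf10, encoding TRAIL, had 0.27 (adjusted p 0.113) and Tnf -0.04 (adjusted p 0.856) in YFPpos cells.

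Of 12 transcription factors known to act on cytotoxic genes, 4 were higher and 4 lower with SGC0946 in YFPpos cells, beside 12.1% and 15.7% of all genes. In YFPneg cells 3 were higher and 0 lower, beside 4.99% and 3.64%. Eomes, a T-box factor that activates Prf1 in CD8 T cells, had 75.6, 111.7 and 164.7 CPM in YFPpos SGC0649 and 18.9, 19.6 and 25.4 CPM in YFPpos SGC0946 libraries and fell by 2.46 (SE 0.24, adjusted p 3.67e-06). Prf1 was higher with SGC0946 in these cells, and a link between both genes was not tested. In YFPneg cells Eomes had -0.71 (adjusted p 0.0823), and the interaction was -1.75 (SE 0.35, adjusted p 0.0195). Id2, an inhibitor of E proteins, rose by 1.06 (SE 0.11, adjusted p 7.38e-06) in YFPpos and by 0.58 (SE 0.13, adjusted p 0.0115) in YFPneg cells. Tcf7, which encodes the factor TCF1, fell by 0.78 (SE 0.07, adjusted p 1.14e-06) in YFPpos cells, with an interaction of -0.92 (adjusted p 0.000749). Prdm1, encoding Blimp-1, had 17.4 and 12.2 CPM in YFPneg SGC0649 and 37.6, 36.4 and 35.5 CPM in YFPneg SGC0946 libraries (1.30, SE 0.29, adjusted p 0.0129).

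The genes most like each member were read from the Pearson correlation of log2 CPM over all 14 libraries among 8980 genes, as a description. The libraries share groups, and the step from naive to cultured cells sets much of each value, so r over the 11 cultured libraries is given as well. Nkg7 was most like Slc43a3 (r 0.999 over 14, 0.984 over 11) and Plk1 (0.998 and 0.972). Cst7 was most like Gcnt1 (0.996 and 0.963) and Nfil3 (0.996 and 0.986), and Ctsw most like 4930539E08Rik (0.996 and 0.98). Gzmb was most like Anln, Nusap1 and Aurkb, at 0.998, 0.997 and 0.997 over all libraries and 0.881, 0.813 and 0.825 over the cultured ones. Srgn was most like Sub1 (0.994 and 0.915) and Il21 (0.989 and 0.951), and Fgl2 most like Elk3 (0.983 and 0.927). Prf1 was most like Sema4f (0.963 and 0.966), P4ha2 (0.95 and 0.963) and Arsb (0.944 and 0.989), and its values were similar with and without the naive libraries. Of the low genes, Gzmc was nearest to Pafah1b2 (0.978 and 0.941), Gzma to Klrc1 (0.931 and 0.877) and Gzmk to Dnajb12 (0.908 and 0.877).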

How the data were processed

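The authors deposited raw read counts per gene for 14 libraries, counted by strand over protein-coding genes on GRCm38, with a summary of assignment counts. The submitters' processing notes name featureCounts, edgeR and limma. The sources used here give neither the aligner nor the versions. Both files hold whole-number counts. In R 4.3.3, edgeR 4.0.16 fitted all 14 libraries in 1 quasi-likelihood model with 1 coefficient per group, TMM scaling and filterByExpr by group (12343 of 22048 genes, minimum count 10). The 9 comparisons used the quasi-likelihood F test with Benjamini-Hochberg adjustment over all genes tested, threshold 0.05. The standard error is |log2 fold change| divided by sqrt(F), with 95% intervals. Fold changes carry a prior count of 0.125. The coefficient of variation between replicates, which edgeR calls biological, was 9.12%, from the common dispersion fitted over all 14 libraries. The groups were not equally spread. Chi-square per degree of freedom of counts between replicates was 3.08 to 3.4 in naive cells. It was 3.29 to 20.5 in cultured groups. Intervals of counts cover counting error only, since PCR reads are not independent molecules. The fit was tested on simulated data. Members and gene lists were chosen with earlier results of these data known. Named genes were all members, up to 4 genes per list and comparison with the smallest p, and for likeness the nearest 3 genes (r of log2 CPM, prior count 2, mean log2 CPM of at least 3). Of the gene IDs 21858 were found in GENCODE M21. Promoters came from RefSeq (GRCm38.p6). Alternatives were DESeq2 1.42.0 size factors and Wald test, no filter, only the libraries compared, replicate blocks and leaving out each library.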

Additional observations from a re-analysis of the deposited data

How the results depend on the processing

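Over 90 member results and 1035 alternatives, 985 kept direction and side of the threshold, 35 lost a call, 13 gained one and 2 reversed, with 40 sign changes between values not called in either fit counted as kept. Both reversals were Gzmk without YFPneg SGC0946 replicate 3: -2.11 (to 7.29 with another library left out) for YFPneg SGC0946 against naive and 7.10 (down to -0.83) for YFPpos against YFPneg with SGC0946. Genes called between compounds in YFPpos cells, 3424 as reported, ran from 1886 (without YFPpos SGC0649 replicate 3) to 3449 with 1 library left out, and were 2004 without YFPpos SGC0946 replicate 2. In YFPneg cells the count, 1065 as reported, was 199 with only the libraries compared, 1615 with DESeq2 and 335 (without YFPneg SGC0649 replicate 2) to 1520 with 1 left out. Members called there numbered 2 with only the libraries compared and 1 to 7 with 1 left out. Interaction genes, 142 as reported, numbered 56 with only the libraries compared, 301 with DESeq2 and 61 (without YFPneg SGC0649 replicate 1) to 241 (without YFPneg SGC0946 replicate 2) with 1 left out, and members 0 to 1. With only the libraries compared, calls were also lost for Prf1 (log2 fold change 0.66, adjusted p 0.0978) and Ctsw (0.39, 0.106) between sorts with SGC0649, and for Srgn (0.34, 0.096), Cst7 (0.58, 0.0582) and Fgl2 (1.28, 0.112) between compounds in YFPneg cells. With DESeq2, Fgl2 was lost in YFPneg cells (1.29, 0.108) and between sorts with SGC0946 (1.08, 0.053). These fold changes were close to those reported. The cause was not tested. The main fit did not pair samples by replicate number. Deviations of same-numbered libraries correlated at 0.036 to 0.147 over 5 pairs, 2 above 0.1. Among libraries of the other sort with the same compound, 9 of 10 libraries correlated best with their own number. Each correlation was counted from both of its ends, and deviations were taken from group means, so these 10 results are not independent. They do not settle whether samples were paired. Across compounds, YFPpos SGC0946 replicate 3 correlated more with YFPpos SGC0649 replicate 3 (0.215) than with YFPneg SGC0946 replicate 3 (0.041). With the replicate block, members called between sorts were 6 with SGC0649 and 8 with SGC0946, between compounds 7 in YFPpos and 6 in YFPneg cells, and 0 for the interaction. With a block for culture they were 6, 8 and 0. Leaving out a YFPneg SGC0649 library leaves 1, assumed to vary like the other groups. Depth limits Gzmk and the granzymes Gzmd to Gzmn.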

Other observations

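Replicate 1 held the highest value of many members at once in some groups. In YFPneg SGC0649 cells 10 of 10 members were higher in replicate 1 than in replicate 2, and in YFPpos SGC0649 cells 8 of 10 were highest in replicate 1 and 0 in replicate 2. In YFPneg SGC0946 cells 6 of 10 were highest in replicate 1. In YFPpos SGC0946 cells replicates 1 and 2 each held 5 of the highest values. In naive cells the highest values were spread over the replicates, with 2, 4 and 4 members. The share of all genes highest in each replicate was not computed, so these counts show nothing particular to the members. In YFPneg SGC0649 cells Gzmb was nearly tied, at 1702 and 1686 CPM, and Gzmk had 6 and 2 counts. Mast cell and basophil markers, of which Mcpt4 had 0 counts in all groups, reached 6.68 CPM in YFPneg SGC0946 cells, where Cpa3 had 4.17 CPM and Mcpt8 2.14 CPM in replicate 1. Cd63, a granule membrane protein, had 37 counts in YFPneg SGC0946 against 1 in YFPneg SGC0649 cells, a ratio of 29.5 (95% counting interval 4.98 to 1197), with 29 of the 37 in replicate 2.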
